A study of Homo sapiens with 2 samples.

Results

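The 9 genes described here encode the NFE2L transcription factors (NFE2L1, NFE2L2 and NFE2L3), the small MAF proteins with which they pair on DNA (MAFG, MAFF and MAFK), the NFE2L1-processing enzymes DDI2 and NGLY1, and KEAP1. They were taken by gene symbol from a table of 50229 symbols, and each had 1 row. These genes, and the gene lists set beside them below, were chosen with earlier results of these data known. All 9 passed the filter for measured genes, an FPKM (fragments scaled to gene length and library size) of at least 1 in at least 1 library, as did 11645 symbols in all. Poly(A) RNA was sequenced from ARP1, an established line of multiple myeloma cells, the malignant form of antibody-secreting plasma cells. There was 1 library labelled as VCP knockdown (siVCP) and 1 labelled as control (siNC). The sources used here do not give the sequence, dose or time of the knockdown. Since each label has a single library, differences have no replicate check, and neither a test nor a p-value is given.

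NFE2L1, often called NRF1 (a name that is also the symbol of a different gene, nuclear respiratory factor), is made as a glycoprotein of the endoplasmic reticulum. The ATPase p97, encoded by VCP, pulls it out of the membrane. The glycanase NGLY1 removes its sugar chains and the protease DDI2 cuts it, after which it enters the nucleus, pairs with a small MAF protein and activates proteasome genes. When the proteasome works, the extracted factor is degraded, and when the proteasome is impaired it escapes, a feedback known as the proteasome bounce-back. NFE2L2 (NRF2) is instead held in the cytoplasm by KEAP1, an adaptor of a cullin ubiquitin ligase, and drives antioxidant genes.

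VCP itself was not lower in the library that carries the knockdown label. Its FPKM was 65.9 in the siVCP-labelled library, against 47.7 in the siNC-labelled library, a 1.38-fold difference [1.33 to 1.43]. Exchanged labels and a knockdown that did not lower the transcript cannot be told apart here, so every direction below refers to the library labels. Were the labels exchanged, each fold would become its reciprocal, 0.322 for MAFK and 0.622 for NFE2L1 in place of the folds given below. Brackets hold 95% intervals that cover counting error only. Estimated counts totalled 68872657 in the siVCP-labelled library and 72566092 in the siNC-labelled library. All 9 plasma cell markers were measured, with a summed FPKM of 1632 in the siVCP-labelled library and 1844 in the siNC-labelled library. Their plain folds ran from 0.668 for PRDM1, 0.681 for JCHAIN and 0.707 for CD38 to 1.55 for SLAMF7, and XBP1, SDC1, IRF4, MZB1 and TNFRSF17 lay between 0.993 and 1.15. The part of these marker differences in the results below was not tested. The labels' protocol speaks of adipose material, but the adipocyte genes ADIPOQ, PLIN1, FABP4 and LEP had a count of 0 in both libraries, and PPARG had FPKM 7.64 and 8.84 in the siVCP- and siNC-labelled libraries. The summed FPKM of the T cell, myeloid, stromal, epithelial and erythroid markers was at most 2.77 per list in either library, and that of the earlier B cell markers was 3.81 in the siVCP-labelled library and 6.70 in the siNC-labelled library. A larger share of cells expressing a gene and more RNA per cell cannot be told apart in these bulk libraries.

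Of the 9 genes, 2 were at least 1.5-fold higher in the siVCP-labelled library, MAFK and NFE2L1, and 0 were at least 1.5-fold lower. This count uses the log2 ratio of FPKM + 1, which understates the difference of low genes. The same threshold was passed by 4.53% of all measured genes on the higher side and by 5.87% on the lower side, 10.4% in all. By plain FPKM the count was 2 higher and 1 lower, the lower gene being MAFF, and 6.89% and 12.3% of all measured genes passed in those directions. The other 6 genes had log2 ratios between -0.21 and 0.16.

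**Figure D1:**
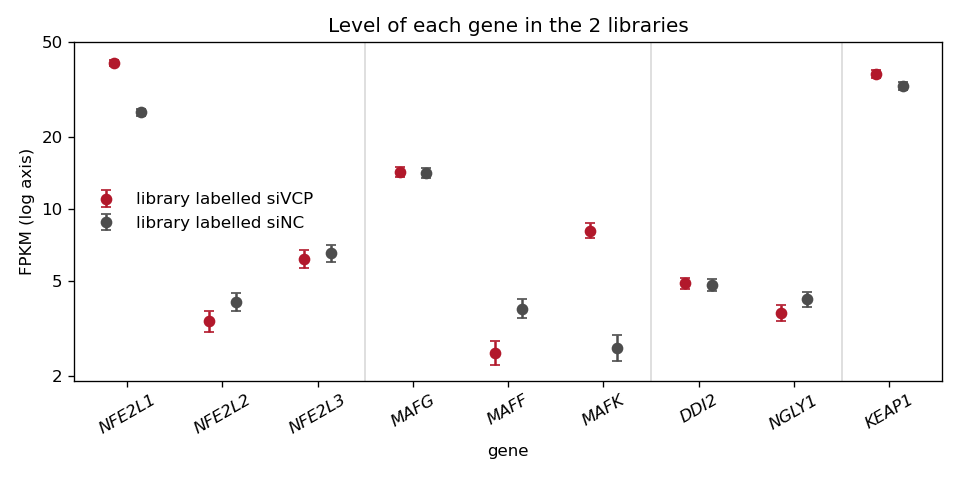
FPKM of each gene on a log axis in the siVCP-labelled library (red, left of each pair) and the siNC-labelled library (grey, right), with exact Poisson 95% intervals of the fragment count as bars. NFE2L1 and MAFK stand clearly higher in the siVCP-labelled library, at 40.9 and 8.12, and MAFF lower, at 2.49.

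Among the factors, NFE2L1 had an FPKM of 40.9 [39.7 to 42.0] in the siVCP-labelled library, against 25.4 [24.6 to 26.3] in the siNC-labelled library. The estimated counts behind these levels were 19845 and 13031, and the intervals of the levels did not overlap. NFE2L1 (ENSG00000082641) lies on the plus strand of chromosome 17, from 48048329 to 48061487 on GRCh38. Its plain FPKM fold was 1.61 [1.54 to 1.68] and its log2 ratio was 0.66, which ranked 387 from the highest of 11645. This call ended when the median log2 ratio of genes of similar GC content was subtracted, which gave 0.57, just below the 1.5-fold threshold of 0.58.

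NFE2L2, the main activator of antioxidant genes, had an FPKM of 3.39 [3.06 to 3.74] in the siVCP-labelled library and 4.09 [3.74 to 4.46] in the siNC-labelled library. The plain fold was 0.829 [0.725 to 0.948], a log2 ratio of -0.21. The siVCP-labelled library was thus the lower one for NFE2L2, by less than 1.5-fold, and the intervals of the levels just overlapped. AC019080, on the same strand, shares 1054 exon bases with NFE2L2. It had 206 counts in the siVCP-labelled library and 286 in the siNC-labelled library, beside 1589 and 2019 for NFE2L2. The part of this overlap in the NFE2L2 level was not tested. NFE2L3, a relative of NFE2L1 that is also bound to the endoplasmic reticulum, had an FPKM of 6.19 in the siVCP-labelled library and 6.52 in the siNC-labelled library. Its fold of 0.949 [0.844 to 1.07] could not be told from no difference by counting error alone.

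NFE2L1 was the most abundant of the factors in both libraries. Its transcript made up 81.0% of the summed FPKM of the NFE2L genes in the siVCP-labelled library, against 70.6% in the siNC-labelled library. The ratio of NFE2L1 to NFE2L2 was 12.1 [10.9 to 13.4] in the siVCP-labelled library and 6.22 [5.66 to 6.85] in the siNC-labelled library. The summed FPKM of the NFE2L genes was 50.4 in the siVCP-labelled library and 36.0 in the siNC-labelled library, and NFE2L1 was the single factor of which the siVCP-labelled library held more.

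The small MAF proteins carry a DNA-binding and dimerisation domain but no activation domain of their own, so what they do at a promoter depends on the partner. MAFK had an FPKM of 8.12 [7.55 to 8.73] in the siVCP-labelled library and 2.61 [2.30 to 2.96] in the siNC-labelled library, from 3000 and 1019 estimated counts. The gap between the libraries was far wider than the counting intervals. MAFK (ENSG00000198517; chromosome 7, 1530702 to 1543043, plus strand, GRCh38) was 3.11-fold higher [2.69 to 3.60] in the siVCP-labelled library. Its log2 ratio of 1.34 ranked 56 from the highest of 11645, and was 0.79 with a pseudocount of 5. The neighbouring genes with an FPKM of at least 1 had smaller differences, with log2 ratios of 0.22 for INTS1, 26313 bases before MAFK, and 0.40 for the proteasome assembly factor gene PSMG3, 24289 bases after it. TMEM184A, on the opposite strand, shares 809 exon bases with MAFK and had 48 counts in the siVCP-labelled library and 66 in the siNC-labelled library.

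MAFF, known as a stress-inducible small MAF, differed in the other direction. Its FPKM was 2.49 [2.21 to 2.79] in the siVCP-labelled library, against 3.82 [3.48 to 4.18] in the siNC-labelled library, from 1154 and 1867 estimated counts. MAFF (ENSG00000185022; chromosome 22, 38200767 to 38216507, plus strand, GRCh38) was 1.54-fold lower [1.32 to 1.78] by plain FPKM and had a log2 ratio of -0.47, which ranked 1158 from the lowest. The counting intervals of the levels were apart. PLA2G6, which overlaps MAFF on the opposite strand without shared exon bases, had a log2 ratio of -0.44. Its FPKM was 1.09 in the siVCP-labelled library and 1.84 in the siNC-labelled library. The neighbouring genes PICK1, 125066 bases before MAFF, and TMEM184B, 2784 bases after it, had log2 ratios of 0.16 and 0.27.

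MAFG had the same level in both libraries within counting error, with FPKM 14.3 [13.6 to 15.0] in the siVCP-labelled library and 14.2 [13.5 to 14.9] in the siNC-labelled library, a fold of 1.004 [0.936 to 1.08]. It was the most abundant small MAF in both, but its share of the summed small MAF FPKM was 57.4% in the siVCP-labelled library and 68.8% in the siNC-labelled library. MAFK held 32.7% of that sum in the siVCP-labelled library, against 12.7% in the siNC-labelled library, and MAFF held 10.0% against 18.5%. The order of MAFK and MAFF was therefore opposite in the libraries. MAFK stood 3.27 times [2.85 to 3.76] above MAFF in the siVCP-labelled library, and at 0.685 times [0.586 to 0.799] its level in the siNC-labelled library. The sum itself was 24.9 in the siVCP-labelled library and 20.6 in the siNC-labelled library, a 1.21-fold difference. The sources used here do not state how reads matching several small MAF genes were assigned.

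**Figure D2:**
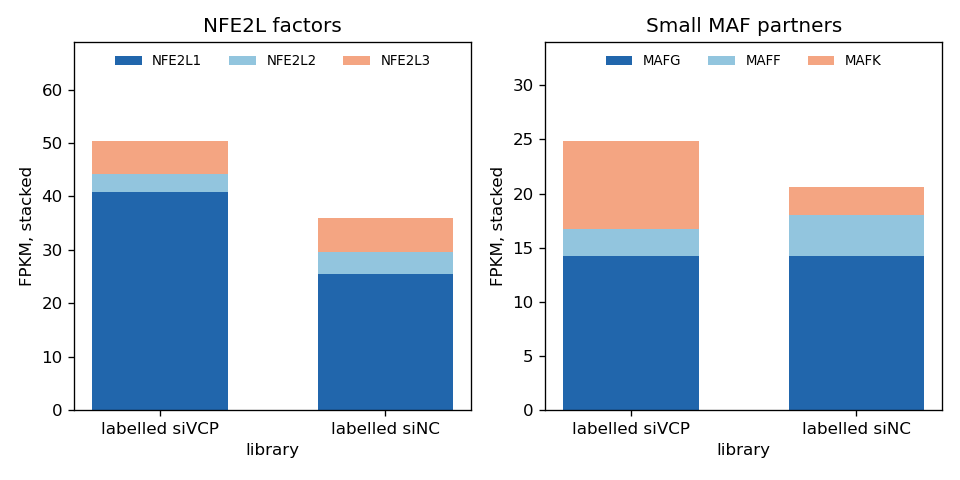
Stacked FPKM of the NFE2L factors (left panel) and the small MAF partners (right panel) in the siVCP- and siNC-labelled libraries. In the left panel the NFE2L1 segment is taller in the siVCP-labelled library (40.9 against 25.4), and in the right panel the MAFG segments match while MAFK is taller and MAFF shorter.

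Neither of the enzymes that act on NFE2L1 after p97 reached 1.5-fold in either direction. DDI2, the aspartic protease that cuts NFE2L1, had an FPKM of 4.88 [4.61 to 5.16] in the siVCP-labelled library and 4.81 [4.55 to 5.08] in the siNC-labelled library. The fold was 1.02 [0.939 to 1.10], so any difference was within counting error. RSC1A1, a gene that shares 1854 exon bases with DDI2 on the same strand, had 17 counts in the siVCP-labelled library and 20 in the siNC-labelled library, beside 4911 and 5097 for DDI2. Its relative DDI1 had a count of 0 in both libraries.

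NGLY1, the cytosolic glycanase that turns the sugar-bearing asparagines of NFE2L1 into aspartates, had an FPKM of 3.66 [3.39 to 3.95] in the siVCP-labelled library and 4.19 [3.90 to 4.49] in the siNC-labelled library. The fold was 0.874 [0.787 to 0.971] and the log2 ratio was -0.15, which was 0.034 after subtraction of the median of genes of similar GC content. OXSM, on the opposite strand, shares 536 exon bases with NGLY1 and had a log2 ratio of -0.024. NFE2L1 transcripts stood 8.37 times [7.86 to 8.91] above those of DDI2 in the siVCP-labelled library, against 5.29 times [4.96 to 5.65] in the siNC-labelled library.

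KEAP1 was abundant in both libraries, with an FPKM of 36.9 [35.5 to 38.3] in the siVCP-labelled library and 32.8 [31.6 to 34.1] in the siNC-labelled library. It was 1.12-fold higher [1.06 to 1.19] in the siVCP-labelled library, beyond counting error but below 1.5-fold. KEAP1 transcripts outnumbered those of NFE2L2, per length, 10.9 times [9.79 to 12.1] in the siVCP-labelled library and 8.04 times [7.30 to 8.86] in the siNC-labelled library.

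**Figure D3:**
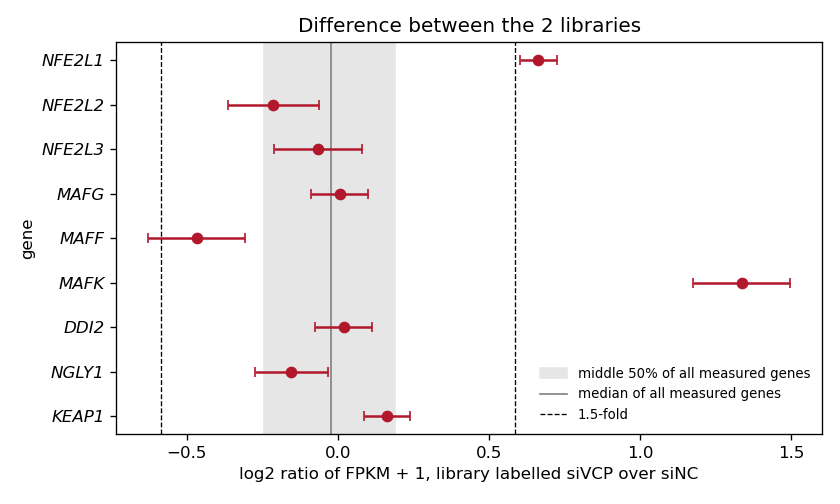
Log2 ratio of FPKM + 1, siVCP-labelled library over siNC-labelled library, for each gene, with 95% counting intervals as bars. The grey band holds the middle 50% of all measured genes (-0.24 to 0.19) and dashed lines mark 1.5-fold. MAFK (1.34) and NFE2L1 (0.66) lie right of the dashed line, MAFF (-0.47) lies left of the band and the other 6 lie within it.

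Set in order of FPKM, the siVCP-labelled library ran from NFE2L1 through KEAP1, MAFG, MAFK, NFE2L3, DDI2, NGLY1 and NFE2L2 to MAFF. In the siNC-labelled library the order was KEAP1, NFE2L1, MAFG, NFE2L3, DDI2, NGLY1, NFE2L2, MAFF and MAFK. Neighbours whose counting intervals overlapped were NGLY1 and NFE2L2 in the siVCP-labelled library, and NGLY1, NFE2L2 and MAFF in the siNC-labelled library. NFE2L1 stood above 91.6% of measured genes in the siVCP-labelled library and above 86.9% in the siNC-labelled library. MAFK stood above 63.4% and 28.9% of them in the siVCP- and siNC-labelled libraries. With 2 libraries, likeness of pattern between genes could not be ranked.

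The ratio of estimated count to FPKM, which follows the length that the authors' tool gave each gene, showed no gene-specific shift between the libraries for any of the 9 genes. It was within 1% of the ratio typical of all genes for each of them, as it was for 97.2% of 10872 genes with at least 100 counts in both libraries. Log2 ratios across all genes varied with GC content, with a median of -0.19 in the quintile of lowest GC content and 0.07 in that of highest. MAFK, at a GC content of 63.4%, MAFF at 59.5% and KEAP1 at 60.3% all fell in the highest quintile, and NFE2L1 (55.2%) and MAFG (57.2%) in the next. The part of GC content in these results was not tested beyond the subtraction given.

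Promoter windows from 250 bases before to 50 bases after a transcription start were found in RefSeq (GRCh38.p14) for 8 of the 9 genes, all but MAFK. They were searched on both strands for the core of the antioxidant response element, TGACNNNGC, to which NFE2L factors bind with small MAF partners, and for the AP-1 core TGANTCA, which can overlap it. The first motif was in windows of 2 of the 8 genes, MAFF and KEAP1, against 16.1% of 27305 genes and 13.3% of 35116 windows in all. The AP-1 core was in none of these genes' windows, against 9.37% of all genes. NFE2L1, the factor with the higher level in the siVCP-labelled library, has 2 windows, and neither motif was found in them. The windows printed are the upstream one of NFE2L1 and those of MAFF and KEAP1 that hold the motif, in capitals. Relative to the letters as printed, the MAFF window has the motif on the minus strand at -122. The KEAP1 window has it on the plus strand at -54 and on the minus strand at -31, again relative to the printed letters. The KEAP1 letters themselves run along the minus strand of the chromosome. Positions are counted to the leftmost base from the start site, and a minus-strand match reads as its reverse complement. A match describes letters and is not a shown binding site.
NFE2L1, chr17:48048109-48048408, plus strand: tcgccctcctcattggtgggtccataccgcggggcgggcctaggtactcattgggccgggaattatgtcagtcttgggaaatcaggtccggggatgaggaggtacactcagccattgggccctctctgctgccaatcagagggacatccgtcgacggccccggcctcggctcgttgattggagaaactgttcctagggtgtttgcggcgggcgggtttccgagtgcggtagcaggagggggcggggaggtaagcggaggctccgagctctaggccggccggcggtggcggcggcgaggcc
MAFF, chr22:38201744-38202043, plus strand: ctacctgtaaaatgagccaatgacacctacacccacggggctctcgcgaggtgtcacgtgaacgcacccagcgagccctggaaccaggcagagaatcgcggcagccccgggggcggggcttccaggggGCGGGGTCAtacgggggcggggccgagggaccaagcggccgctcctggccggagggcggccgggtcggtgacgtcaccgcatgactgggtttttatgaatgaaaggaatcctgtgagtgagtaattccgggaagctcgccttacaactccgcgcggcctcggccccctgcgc
KEAP1, chr19:10502722-10503021, minus strand: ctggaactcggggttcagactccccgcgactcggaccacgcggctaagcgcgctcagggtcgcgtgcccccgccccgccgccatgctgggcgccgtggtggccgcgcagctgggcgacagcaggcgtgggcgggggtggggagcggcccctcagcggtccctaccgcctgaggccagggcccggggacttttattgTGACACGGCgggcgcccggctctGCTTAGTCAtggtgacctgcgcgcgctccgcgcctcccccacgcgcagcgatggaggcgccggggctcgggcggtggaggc

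Proteasome genes, the best-known targets of NFE2L1, were higher in the siVCP-labelled library in most cases. Of 33 subunits of the core and regulatory particles, all measured, 20 were at least 1.5-fold higher (60.6%, against 4.53% of all measured genes) and 0 were lower. Their median log2 ratio was 0.63, against -0.023 over all measured genes. PSMD11, a subunit of the regulatory particle lid, was highest at 0.999 and the ubiquitin receptor gene ADRM1 followed at 0.87. PSMA2 was lowest at -0.054, and PSMD6 had 0.10. The log2 ratio of NFE2L1 itself, 0.66, was close to the median of these subunits, and a link between them was not tested.

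Of 20 listed NRF2 target genes, 17 were measured, and 1 (5.88%, near the 4.53% of all measured genes) passed 1.5-fold on the higher side and 0 on the lower (5.87% of all). By plain FPKM 2 were higher and 0 lower, beside 6.89% and 12.3% of all measured genes. The median log2 ratio of the NRF2 targets was 0.29, against -0.023 over all measured genes. Of the 17, 13 had a log2 ratio above 0, as did 47.2% of all measured genes. PIR, a non-haem iron protein, had 1.07 and the quinone reductase gene NQO1 0.55, whereas HMOX1, the haem oxygenase, had -0.086 and the transporter gene ABCC1 -0.074. The levels of NFE2L2 (log2 ratio -0.21) and of its inhibitor KEAP1 (0.16) are given above.

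Of 37 other genes of the NFE2L1 route, 31 were measured. On the log2 ratio scale 1 (3.23%) passed 1.5-fold on the higher side and 1 on the lower, near the 4.53% and 5.87% of all measured genes, and the median was 0.036. By plain FPKM the counts were 3 higher, RUVBL1, UFD1 and SQSTM1, and 1 lower. On that scale 6.89% of all measured genes were higher and 12.3% were lower. The higher gene was RUVBL1, an ATPase of the TIP60 acetyltransferase complex, a cofactor of NFE2L1, with an FPKM of 29.8 in the siVCP-labelled library and 18.5 in the siNC-labelled library. Its partner RUVBL2 had a log2 ratio of 0.33 and KAT5, the acetyltransferase of that complex, 0.22. The lower gene was MAF, a large MAF factor with an activation domain, with an FPKM of 48.5 in the siVCP-labelled library and 90.9 in the siNC-labelled library. MAF was thus more abundant than any small MAF gene in both libraries.

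Of the p97 adaptors that bind ubiquitin-marked substrates, UFD1 had a log2 ratio of 0.58, just under 1.5-fold on this scale, and a plain fold of 1.55, and NPLOC4 had a log2 ratio of 0.49 and a plain fold of 1.43. The ubiquitin ligase gene SYVN1 (HRD1), which acts on NFE2L1 at the membrane, had 0.09 and its partner SEL1L -0.18. The ligase subunits that act on nuclear NFE2L1 had -0.33 for FBXW7 and -0.29 for BTRC. OGT, a sugar transferase that modifies NFE2L1, had -0.27 and its partner HCFC1 0.24. Of the genes acting on KEAP1, SQSTM1, whose product competes with NFE2L2 for it, had 0.58 and DPP3 0.52, while the ligase scaffold gene CUL3 had -0.14. AMER1 and PALB2, from the same part of the route list, had 0.27 and -0.024. The repressors BACH1 and BACH2, which also pair with small MAF proteins, had FPKM 1.93 and 2.81 in the siVCP-labelled library, against 1.97 and 4.06 in the siNC-labelled library. BACH2 had a log2 ratio of -0.41.

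**Figure D4:**
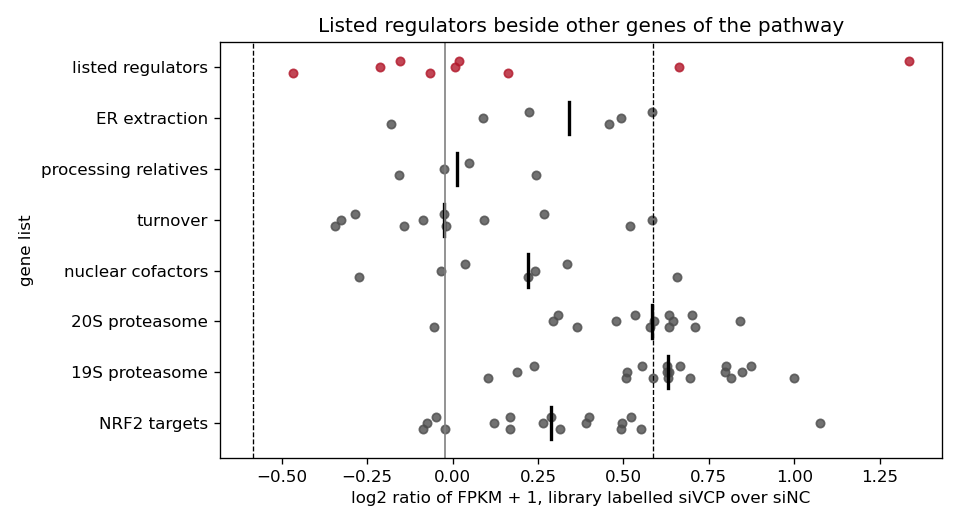
Log2 ratio of FPKM + 1, siVCP-labelled library over siNC-labelled library, of the 9 listed regulators (red) and of measured genes of the pathway lists (grey), 1 point per gene, with list medians as black bars, the median of all measured genes as a grey line and 1.5-fold as dashed lines. Proteasome subunits (19S regulatory particle, median 0.63, and 20S core, median 0.58) lie to the right, while the 9 regulators range from -0.47 to 1.34.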

How the data were processed

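Poly(A) RNA of ARP1 cells was sequenced from paired ends (per the labels' protocols) in 1 siVCP-labelled and 1 siNC-labelled library. StringTie 1.3.0 and HISAT2 2.0 appear in the submitters' processing notes, with no role. The genome build, annotation and strandedness are unstated (not given in the sources used here). GENCODE 29 held 58394 of the identifiers, and 90.6% of these shared a start or end with it, so positions are given as GRCh38. FPKM values were normalized by the authors. The estimated counts that the authors deposited are integers with an excess at multiples of 4 (in the siVCP-labelled library 1205 rows hold 4, 417 hold 3 and 244 hold 5), from which it was inferred that 1 fragment adds about 4 counts. Rows with a count of 0 carry a floor FPKM, which was set to 0.

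Rows sharing a symbol were summed, and differences are log2 ratios of FPKM + 1, siVCP-labelled over siNC-labelled. Intervals were computed from counts divided by 4, as exact Poisson intervals of a level and exact conditional binomial intervals of a fold (95%). They cover counting error only and leave out variation between replicates, of which there were none. Sequenced fragments carried no stated molecular identifiers and may be copies of 1 molecule, in which case the intervals are too narrow. No count model was fitted, because each group held 1 library. The members and lists were chosen with earlier results of these data known. Named were the 9 genes, VCP, genes of the route list by role, the 2 highest and 2 lowest of the proteasome and NRF2 lists, marker genes, and overlapping rows. INTS1 and PSMG3, the neighbours of MAFK, and PICK1 and TMEM184B, the neighbours of MAFF, were added after the values were seen. GC content and length were those of the longest basic protein-coding transcript in GENCODE 29. Protein sequences were not used here. The steps were tested on simulated data. The software was Python 3.11.15 with scipy 1.17.1, pandas 2.3.3, numpy 2.4.6 and matplotlib 3.10.9.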

Additional observations from a re-analysis of the deposited data

How the results depend on the processing

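No paired analysis was possible because there was a single library per label, which also meant that none could be left out. Of the log2 ratios of the 9 genes, 77 of 87 recomputed values stayed within their counting interval. This tally includes settings that could not alter a ratio, so it overstates the agreement. They were the changed filters on low values and the highest row per symbol, as each gene had 1 row. MAFK was 1.60 with a pseudocount of 0.1, 0.79 with 5, 1.55 after rescaling to the same sum and 1.63 with CPM from the counts. NFE2L1 was 0.59 with a pseudocount of 5, 0.74 with CPM and 0.57 after subtracting the median of its GC quintile (a setting chosen after seeing the data), where it no longer passed 1.5-fold. MAFF was -0.24 with a pseudocount of 5, NGLY1 0.034 after the GC subtraction, DDI2 0.17 after subtracting the median of its length quintile, and VCP 0.53 with CPM. The number of the 9 genes past the threshold on the higher side was 2, and 1 at 2-fold, which 1.05% of all measured genes passed. On the lower side it was 0, and 1 (MAFF) with a pseudocount of 0.1, at the lower fold threshold tried and by plain FPKM fold. Of the route genes, 1 was higher, against 3 with a pseudocount of 0.1 or either rescaling, 0 with a pseudocount of 5 and 4 with CPM, and their median was 0.22 with an FPKM of at least 5. For proteasome genes 13 were higher with a pseudocount of 5, with a median of 0.54, and the median was 0.70 with CPM. For NRF2 targets 2 were higher with a pseudocount of 0.1 or sums made equal and 3 with CPM, and the median was 0.22 without a filter. The cause of these shifts was not tested. Over all measured genes, 528 were higher and 684 lower, against 770 and 1351 (pseudocount 0.1), 163 and 141 (pseudocount 5), 1109 and 1740 (sums made equal, which let 15172 genes pass the filter in place of 11645), and 802 and 1432 (plain FPKM fold). With CPM, 6.51% of all measured genes were higher and 7.66% lower. After rescaling to a median log2 ratio of 0, these shares were 5.02% and 5.38%. By counting error alone, NFE2L3, DDI2 and MAFG could not be told from no difference. For the other genes the counting interval excluded no difference, but with 1 library per label variation between replicates is unknown for every gene.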
